A study of Spodoptera exigua with 2 samples.

Results

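Some transcripts of Spodoptera exigua hemocytes were plentiful in total but came from very few cells. These genes were chosen as the loci with at least 2000 UMIs over both libraries and with 1 or more UMIs in under 3% of the cells. A UMI (unique molecular identifier) marks 1 captured mRNA molecule. Of the 13002 loci in the data, 5079 had at least 2000 UMIs and 18 of these met both limits. The paper's tables name 2 of the 18 as muscle genes, troponin T and myosin regulatory light chain 2, and these were left out, which gave 16 member genes. The members were thus selected on their measured counts in these same cells, so abundance and rarity of the members are given as descriptions and nothing was tested with them.

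The cells came from the hemolymph of fifth-instar larvae of the beet armyworm. Naïve larvae received phosphate-buffered saline, and challenged larvae received 140000 heat-killed Escherichia coli TOP10 cells each, into a proleg. Hemolymph was collected from the larvae of each group after 8 h, filtered through a strainer and loaded on a 10x Chromium 3′ system, with 1 library per group. Since each group had 1 library, no test between the groups was possible. The 95% intervals below are exact and cover counting error only, which is too narrow for genes whose UMIs clump in few cells.

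Hemocytes are the circulating cells of the insect open blood system. They engulf and encapsulate invaders, release antimicrobial peptides, and start melanization through the prophenoloxidases (PPO) that oenocytoids hold. Receptors called peptidoglycan recognition proteins (PGRPs) sense bacterial cell walls and feed the Toll and IMD pathways. Muscle cells are not hemocytes. Their contractile fibres hold troponin T and myosin light chains, which regulate contraction. The paper lists troponins, a myosin light chain and HP13, a protein without a known function, among the top genes of a cell cluster. It classes that cluster as a new hemocyte type and reports an in situ hybridization probe for it.

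The libraries held 14840 naïve and 12524 challenged cells with at least 200 genes, with medians of 3347 and 5282 UMIs per cell. There were 44 barcodes that occurred in both libraries, and at most 2 of them were among the cells that carried any 1 member. Called doublets were 2.91% of the naïve and 1.55% of the challenged cells. They made up between 0 and 4.76% of the cells that carried a member.

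The word abundant holds for the members only per cell. They had between 2000 and 5181 UMIs, with a median of 2411 against 7531 over the 5079 loci with at least 2000 UMIs. They lay in 1.13% to 2.93% of the cells, against a median of 18.02% over those loci. The mean per cell with a UMI ran from 2.701 to 8.33 UMIs, against a median of 1.51. All 16 members together gave 44158 UMIs, which was 0.0314% of the naïve and 0.0197% of the challenged total. A cell was taken to carry a gene at 3 or more UMIs, and such cells held 84.0% of the members' UMIs. At least 1 member was carried by 2171 of the 27364 cells, or 7.93%.

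**Figure D1:**
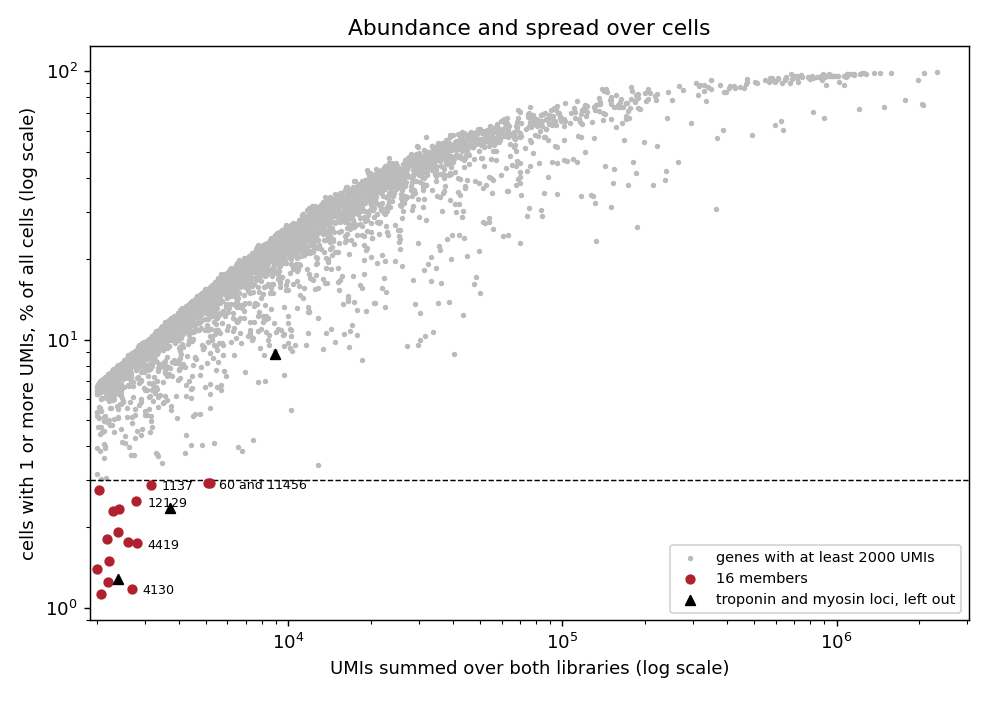
UMIs summed over both libraries against the percentage of cells with 1 or more UMIs, both on log scales, for the 5079 loci with at least 2000 UMIs (grey), the 16 members (red) and the troponin and myosin loci left out by name (triangles). The dashed line is the limit of 3% of the cells, and the members lie between 1.13% and 2.93%.

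No gap set the members apart from the loci just outside the limits. The members nearest to the limit of 3% were SPEXI_LOCUS11456 with 5181 UMIs in 2.93% of the cells and SPEXI_LOCUS60 with 5093 UMIs in 2.92%. Just outside it were SPEXI_LOCUS9234 with 2069 UMIs in 3.02% and SPEXI_LOCUS5519 with 2162 UMIs in 3.06%. The members with the fewest UMIs were SPEXI_LOCUS1708 with exactly 2000 and SPEXI_LOCUS9231 with 2039. Below that limit came SPEXI_LOCUS4141 with 1897 UMIs in 2.50% of the cells and SPEXI_LOCUS61 with 1831 UMIs in 1.44%. Among the members, SPEXI_LOCUS4419 is HP13 of the paper, a protein without a known function, and SPEXI_LOCUS12275 is 1 of 4 loci that its Toll pathway diagram gives for small PGRPs. The other 14 members have no name in the sources used here.

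Which members shared cells was described by Pearson's r of log1p(UMIs per 10000) over the 27364 pooled cells. Of the 120 pairs of members, 99 had an r below 0.1 and 50 had no carrier in common. Genes carried by so few cells share few by the product of their shares of carriers alone. That product ran from 0.251 cells (SPEXI_LOCUS4130 with SPEXI_LOCUS7068) to 2.47 cells (SPEXI_LOCUS60 with SPEXI_LOCUS1137) in these 50 pairs. The count of 50 is thus not read as separation of the members. Only 10 pairs reached an r of 0.3. At a mean r of at least 0.4 there were 2 sets with more than 1 member, SPEXI_LOCUS11240 with SPEXI_LOCUS7068 and SPEXI_LOCUS12129 with SPEXI_LOCUS9291, and the other 12 members stood alone. At a mean r of at least 0.3 there were 3 sets holding 9 members. These were SPEXI_LOCUS4419, SPEXI_LOCUS5703, SPEXI_LOCUS11240 and SPEXI_LOCUS7068, then SPEXI_LOCUS12129, SPEXI_LOCUS4719 and SPEXI_LOCUS9291, and last SPEXI_LOCUS60 with SPEXI_LOCUS59. These correlations are across cells that share libraries and depth, and cells are not replicates.

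**Figure D2:**
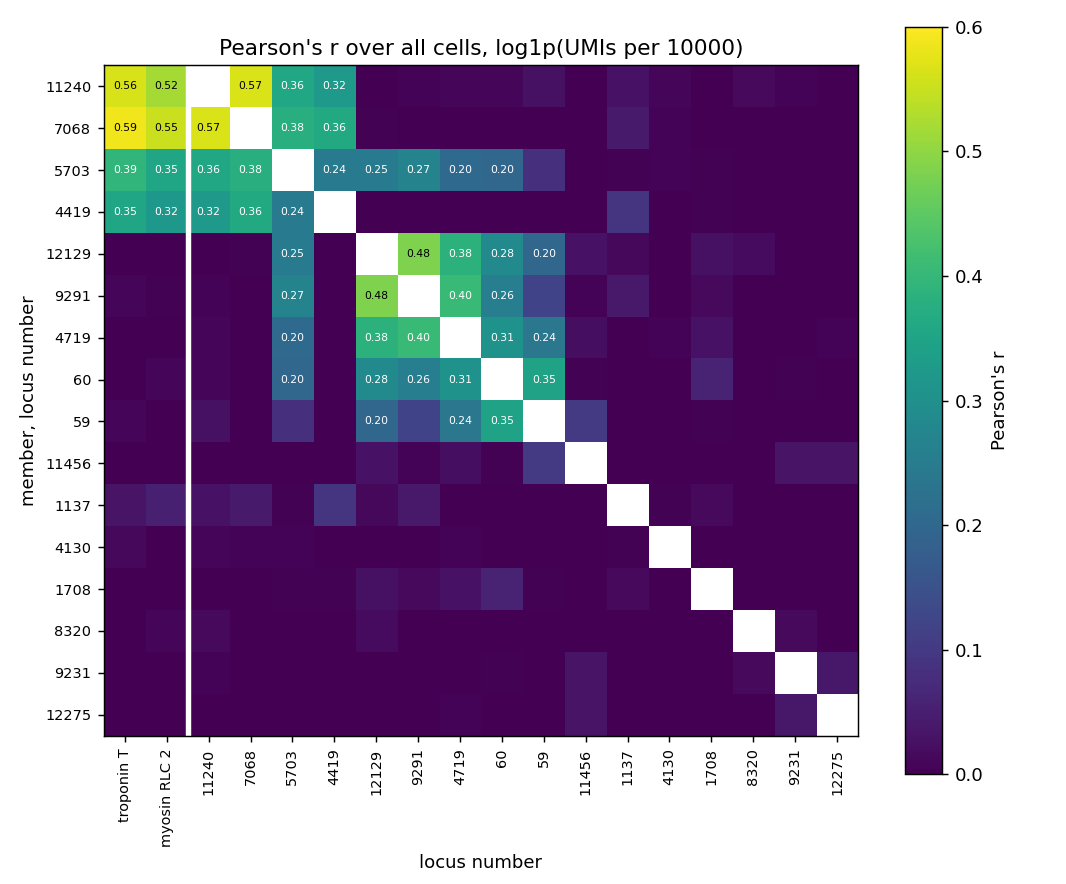
Pearson's r of log1p(UMIs per 10000) over 27364 cells between the 16 members (rows and right-hand columns) and with the 2 muscle loci left out (left-hand columns). Colour gives r from 0 to 0.6, values of at least about 0.2 are printed, and the blocks are the muscle-linked members at the top and the members around SPEXI_LOCUS12129 in the middle, with SPEXI_LOCUS5703 in both.

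A first group of members lay in cells with transcripts of troponin T and myosin regulatory light chain 2. SPEXI_LOCUS11240 and SPEXI_LOCUS7068 had an r of 0.57 with each other, and they shared 42 carriers, which were 67.7% of the 62 carriers of SPEXI_LOCUS11240 and 77.8% of the 54 of SPEXI_LOCUS7068. Their r with troponin T was 0.56 and 0.59, and with myosin regulatory light chain 2 it was 0.52 and 0.55. Unnamed loci with an equally close pattern were SPEXI_LOCUS1039 (mean r 0.58 to this pair), SPEXI_LOCUS2183 (0.51) and SPEXI_LOCUS11603 (0.50). In the naïve library, troponin T stood at 11965 CPM (counts of UMIs per 1e6 UMIs of the same cells) in the 31 carriers of SPEXI_LOCUS11240, 4220 times its level in all other cells. In the challenged library it stood at 3349 CPM in the 31 carriers there, 2256 times its level elsewhere.

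The muscle-linked pair was the most concentrated of the 16 members. At least 50% of the UMIs of SPEXI_LOCUS7068 came from 5 cells, and of those of SPEXI_LOCUS11240 from 7 cells. A single naïve cell with 10031 UMIs ranked first for SPEXI_LOCUS7068 (430 UMIs), SPEXI_LOCUS11240 (374) and SPEXI_LOCUS5703 (221). The same cell held 447 UMIs of troponin T and 292 of myosin regulatory light chain 2, with 6.15% of its UMIs from cathepsins, and it was not called a doublet. Most carriers were shallow, with medians of 1833 naïve and 2470 challenged UMIs for SPEXI_LOCUS11240 and medians of 1443 and 3333 UMIs for SPEXI_LOCUS7068.

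SPEXI_LOCUS7068 was at 17.1 CPM (interval 16.2 to 18.1) in naïve and 7.28 CPM (6.75 to 7.85) in challenged larvae. SPEXI_LOCUS11240 was at 16.6 CPM (15.7 to 17.5) and 8.89 CPM (8.30 to 9.51). The challenged over naïve ratios were 0.425 and 0.536, but the numbers of carriers were close, with 27 and 27 for SPEXI_LOCUS7068 and 31 and 31 for SPEXI_LOCUS11240. Without the 10 cells of each library with the most UMIs of the gene, the ratios were 0.623 and 0.833, and without the 1 top cell 0.615 and 0.741. The 2-fold difference of SPEXI_LOCUS7068 thus rested on that 1 naïve cell. Troponin T and myosin regulatory light chain 2, both excluded, had ratios of 0.358 and 0.540 and were carried by 29 and 27 and by 49 and 55 cells. Troponin I, also left out by name, lay in 8.84% of the cells and had a ratio of 0.590. It was carried by 531 and 437 cells, far more than either member. Its r with SPEXI_LOCUS7068 and with SPEXI_LOCUS11240 was 0.29, lower than that of the other muscle loci. Of the 7711 loci with at least 200 UMIs, 0.207% reached an r of 0.2 with each of these members. Whether muscle tissue entered the hemolymph at collection was not tested. Nor was it tested whether these carriers belong to the paper's hemocyte cluster with troponins among its top genes.

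SPEXI_LOCUS4419, the HP13 gene, had carriers of more than 1 kind. It was at 15.4 CPM (14.5 to 16.2) in naïve and 16.4 CPM (15.6 to 17.2) in challenged larvae, with 63 and 60 carriers. Of the naïve carriers, 17 held 3 or more UMIs of a muscle locus, SPEXI_LOCUS11240 or SPEXI_LOCUS7068 and were not cathepsin-rich. Another 35 were cathepsin-rich alone, 2 were both and 9 were neither. Cathepsin-rich cells are those with at least 5% of their UMIs from procathepsin H and cysteine proteinase 1-like, lysosomal proteases. The challenged carriers were split alike, with 15, 35, 2 and 8 cells. Cathepsin-rich cells were 58.7% of the naïve carriers and 61.7% of the challenged ones, against 19.5% and 25.8% of all cells. Near the limit of 5%, 146 naïve and 164 challenged cells lay between 4% and 6%.

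A single challenged cell held 506 UMIs of SPEXI_LOCUS4419, which was 18.1% of all UMIs of the gene and 8.37% of the UMIs of that cell. The ratio was 1.07 with this cell and 0.718 (interval 0.661 to 0.781) without it. The kinds of carriers held different parts of the UMIs. Muscle-linked carriers that were not cathepsin-rich gave 33.7% of the naïve and 50.9% of the challenged UMIs. Cathepsin-rich carriers without muscle transcripts gave 36.5% and 24.9%. Carriers that were both gave 8.73% and 1.29%, so the naïve order of the first 2 kinds depends on where these are counted. The challenged cell with 506 UMIs was of the first kind. Without it the challenged parts of the first 2 kinds were 27.0% and 37.0%, and that of carriers that were both was 1.92%. Neither the order of the first 2 kinds in that library nor the higher muscle-linked part thus held.

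SPEXI_LOCUS5703 lay in both blocks of members but not in both at once. Of its 84 naïve carriers, 14 held 3 or more UMIs of SPEXI_LOCUS11240, SPEXI_LOCUS7068 or SPEXI_LOCUS4419, another 51 held 3 or more of SPEXI_LOCUS12129, SPEXI_LOCUS9291 or SPEXI_LOCUS4719, 19 held neither, and 0 held both. Of its 26 challenged carriers the numbers were 16, 3, 7 and 0. Troponin T was carried by 13 of the 14 naïve and 13 of the 16 challenged cells of the first kind, and by 0 of the 51 and 0 of the 3 cells of the second. The cells of the second kind were deeper, with medians of 8982 against 1772 UMIs in the naïve library.

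The level of SPEXI_LOCUS5703 was 23.2 CPM (22.1 to 24.3) in naïve and 3.32 CPM (2.97 to 3.71) in challenged larvae, with a ratio of 0.143 (0.127 to 0.162). The muscle-linked carriers were about as many in both libraries, 14 and 16, and held 464 and 193 UMIs of the gene. The naïve cell of 10031 UMIs named above was 1 of the 14 and held 221 of the 464, which left 243 UMIs in the other 13. The other kind numbered 51 and 3 and held 943 and 13 UMIs.

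SPEXI_LOCUS12129, SPEXI_LOCUS9291 and SPEXI_LOCUS4719 were carried by a common group of naïve cells. SPEXI_LOCUS12129 and SPEXI_LOCUS9291 had an r of 0.48 and shared 94 carriers, 52.8% of the 178 and 67.1% of the 140. SPEXI_LOCUS4719 had an r of 0.40 with SPEXI_LOCUS9291 and 0.38 with SPEXI_LOCUS12129. In the naïve library 119 cells (0.802%, interval 0.665 to 0.959) carried at least 2 of the 3, and 59 of them carried all 3. In the challenged library 12 cells (0.0958%, 0.0495 to 0.167) carried at least 2, and 1 carried all 3. The mean r of the 3 pairs was 0.48 in the naïve library and 0.15 in the challenged one.

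All 3 were lower in the challenged library. SPEXI_LOCUS9291 had the lowest ratio of all members, with 2125 UMIs (26.2 CPM, interval 25.1 to 27.3) against 88 (0.931 CPM, 0.747 to 1.15), a ratio of 0.0356 (0.0284 to 0.0441). Its carriers numbered 131 and 9, and no challenged cell held more than 6 UMIs, while the naïve maximum was 178. SPEXI_LOCUS4719 was at 24.9 and 4.02 CPM, a ratio of 0.161 (0.144 to 0.180), with 148 and 40 carriers. SPEXI_LOCUS12129 was at 25.6 and 7.55 CPM, a ratio of 0.295 (0.270 to 0.321), with 138 and 40 carriers, and 1 challenged cell gave 25.8% of that library's UMIs. Without that cell its ratio was 0.219.

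The naïve cells that carried at least 2 of these 3 genes had a median depth of 7950 UMIs and 1827 genes. They were low in several markers of the classes named in the paper, with 901 CPM of cysteine proteinase 1-like and 1222 CPM of procathepsin H, 0.114 and 0.120 times the levels in all other cells. Hemocytin, a clotting protein, had 1572 CPM or 0.445 times, and SPARC, a matrix-associated protein, 2449 CPM or 0.320 times. Troponin T was at 2.97 CPM in them, against 21.0 CPM in the other cells. Loci outside the members with the closest pattern were SPEXI_LOCUS6620 (mean r 0.42), SPEXI_LOCUS6619 (0.39), SPEXI_LOCUS9289 (0.37), SPEXI_LOCUS4608 (0.37) and SPEXI_LOCUS61 (0.33). None of these 5 is named in the sources used here. Their own ratios between the libraries were 0.142, 0.188, 0.132, 0.344 and 0.183.

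SPEXI_LOCUS60 and SPEXI_LOCUS59 shared 72 carriers, 20.6% of the 349 and 35.6% of the 202, with an r of 0.35. In the naïve library 30 cells and in the challenged library 42 cells carried both. SPEXI_LOCUS60 also shared 77 carriers with SPEXI_LOCUS4719 (r 0.31) and 70 with SPEXI_LOCUS12129 (r 0.28). Of the 5 genes SPEXI_LOCUS60, SPEXI_LOCUS59, SPEXI_LOCUS12129, SPEXI_LOCUS9291 and SPEXI_LOCUS4719, at least 3 were carried by 89 naïve cells, of which 9 held all 5, and by 11 challenged cells, of which 0 held all 5.

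The 2 genes differed in how they compared between the libraries. SPEXI_LOCUS60 was at 39.5 CPM (38.1 to 40.8) in naïve and 20.0 CPM (19.1 to 20.9) in challenged larvae, a ratio of 0.506, with 202 and 147 carriers. SPEXI_LOCUS59 was at 15.4 CPM (14.6 to 16.3) and 14.3 CPM (13.5 to 15.1), a ratio of 0.927, with 77 and 125 carriers. For SPEXI_LOCUS59, 1 naïve cell held 304 UMIs, 24.3% of its library's total, and the ratio was 1.22 without that cell and 1.42 without the 10 top cells of each library. When each cell had the same weight, the ratios were 1.18 for SPEXI_LOCUS60 and 1.87 for SPEXI_LOCUS59, so neither had a direction that held over the scalings.

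SPEXI_LOCUS4130 lay in cells rich in the prophenoloxidases, the zymogens of melanization. Its 80 naïve carriers had 57344 CPM of PPO1 and 62328 CPM of PPO2, 15.7 and 17.8 times the levels in all other cells. The 47 challenged carriers had 63135 and 58067 CPM, 11.3 and 12.3 times. Cells with at least 5% of their UMIs from the 2 PPO genes were 3.24% of the naïve cells and held 82.5% of the gene's UMIs, and in the challenged library they were 4.82% and held 79.4%. Yet only 62 of the 481 PPO-rich naïve cells (12.9%, interval 10.0 to 16.2) and 37 of the 604 challenged ones (6.13%, 4.35 to 8.35) carried it. In cathepsin-rich cells 0 of 2892 naïve (3 counts of the total, the limit used here for a count of 0, are 0.104%) and 1 of 3232 challenged cells did. These PPO-rich cells had medians of 9074 and 11996 UMIs and the cathepsin-rich ones of 1718 and 2065.

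The summed level of SPEXI_LOCUS4130 was 25.4 CPM (24.4 to 26.6) in naïve and 6.58 CPM (6.08 to 7.12) in challenged larvae, with a ratio of 0.259 (0.236 to 0.283). Within the PPO-rich cells alone it was 374 and 66.7 CPM. The carriers held a median of 12 naïve and 6 challenged UMIs of the gene, and the highest cell held 319 and 54. Without the 10 top cells of each library the ratio was 0.260.

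**Figure D3:**
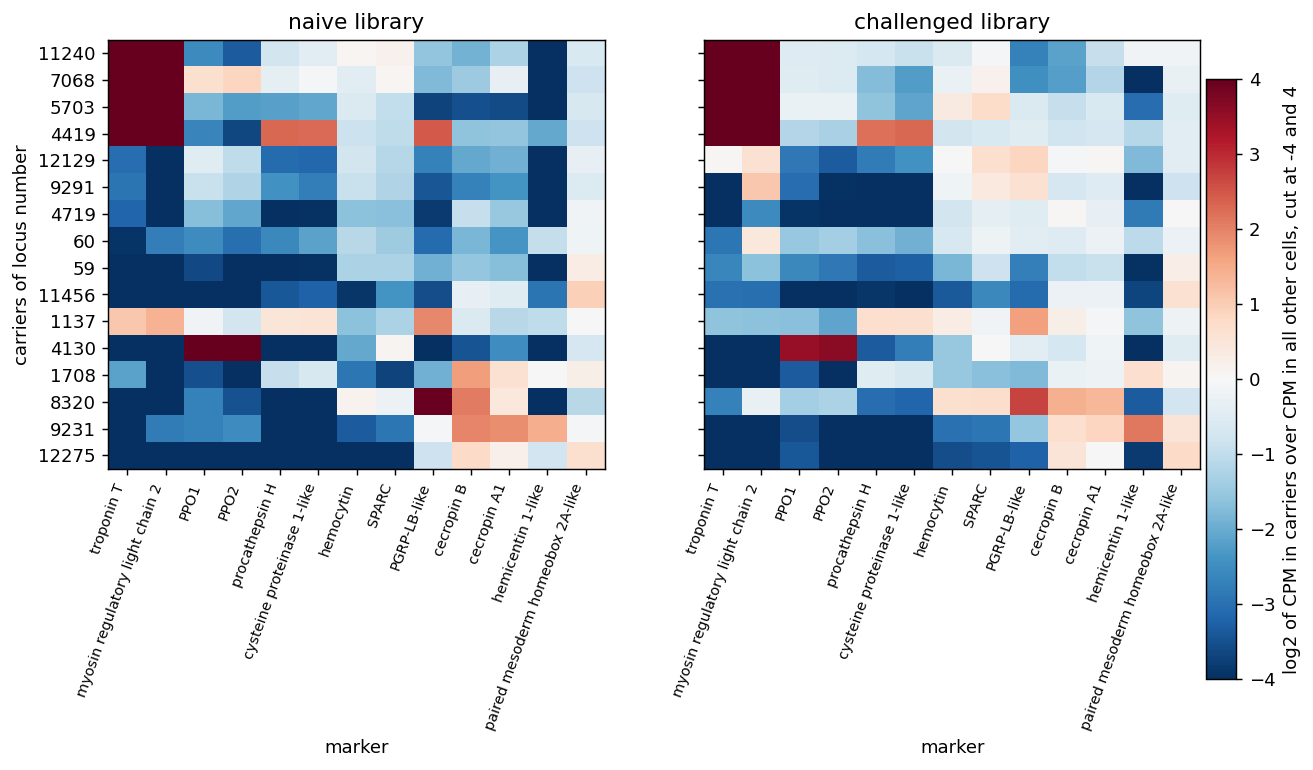
CPM of marker genes in the carriers of each member over their CPM in all other cells of the same library, as log2 (colour, with values beyond -4 and 4 and levels of 0 drawn at the ends of the scale), for the naïve (left) and the challenged library (right). Rows are the members in the same order as in the plot of correlations, and the rows of SPEXI_LOCUS11240, SPEXI_LOCUS7068, SPEXI_LOCUS5703 and SPEXI_LOCUS4419 are high in muscle loci, that of SPEXI_LOCUS4130 in PPO, and that of SPEXI_LOCUS8320 in PGRP-LB-like.

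The 3 members highest in the challenged library over the naïve one were carried by different cells. SPEXI_LOCUS8320, SPEXI_LOCUS12275 and SPEXI_LOCUS9231 had 604 challenged cells with exactly 1 of them, 14 with 2 and 0 with all 3, and no r above 0.04 with each other. SPEXI_LOCUS8320 had the highest ratio of all members. It had 150 naïve UMIs (1.85 CPM, interval 1.56 to 2.17) and 2268 challenged UMIs (24.0 CPM, 23.0 to 25.0), a ratio of 12.998 (11.01 to 15.4). Its carriers numbered 12 (0.0809%, 0.0418 to 0.141) and 259 (2.07%, 1.83 to 2.33).

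Nearly all challenged carriers of SPEXI_LOCUS8320 held the PGRP-LB-like transcript, which in Drosophila encodes an amidase that degrades peptidoglycan. Of the 259, 257 held 3 or more UMIs of it, against 31.2% of all challenged cells, and its level in them was 10765 CPM, 6.51 times that in the other cells. Cecropin B, an antimicrobial peptide, was at 50488 CPM or 2.71 times, and SPARC and hemocytin were at 1.63 and 1.56 times. Procathepsin H was at 0.120 times. The median depth of the challenged carriers was 8802 UMIs. The 12 naïve carriers were shallow, with a median of 1183.5 UMIs, and 3 of them held 3 or more UMIs of PGRP-LB-like. The r of SPEXI_LOCUS8320 with PGRP-LB-like was 0.27, with SPEXI_LOCUS11298 0.30 and with SPEXI_LOCUS11061 0.29, and these loci had ratios of 19.4, 12.2 and 2.66. When each cell had the same weight, the ratio of SPEXI_LOCUS8320 was 3.78 in place of 12.998.

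SPEXI_LOCUS9231 lay in cells with hemicentin 1-like, which in nematodes helps to anchor cells to basement membranes. Its 22 naïve carriers had 5534 CPM of hemicentin 1-like and its 177 challenged carriers 8233 CPM, 2.75 and 4.29 times that in the other cells. Of these carriers 17 and 145 held 3 or more UMIs of it, or 77.3% and 81.9%, against 14.5% and 13.5% of all cells. The carriers were deep, with medians of 7489.5 and 11222 UMIs, 2.24 and 2.12 times the library medians. These shares were not compared at equal depth. The r of SPEXI_LOCUS9231 with hemicentin 1-like was 0.18, and the closest locus was SPEXI_LOCUS408, which is not named, with 0.28. Cecropin B was 3.85 and 1.599 times and SPARC 0.135 and 0.134 times the level elsewhere. Procathepsin H was at 100.4 and 724 CPM, against 10062 and 13399 CPM in the cells that did not carry the gene.

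The level of SPEXI_LOCUS9231 was 6.70 CPM (6.15 to 7.28) in naïve and 15.8 CPM (15.03 to 16.6) in challenged larvae, with a ratio of 2.36 (2.14 to 2.61). One naïve cell held 183 of the 544 naïve UMIs, and without it the ratio was 3.56 (3.17 to 4.00). Without the 10 top cells of each library it was 5.32. The carriers numbered 22 (0.148%, 0.0929 to 0.224) and 177 (1.41%, 1.21 to 1.64). With each cell given the same weight the ratio was 1.82, below 2-fold.

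SPEXI_LOCUS12275, the small PGRP locus, had the deepest carriers of the 16 members. Its carriers had medians of 23046.5 naïve and 27782.5 challenged UMIs, 6.89 and 5.26 times the library medians, and 92.1% and 88.8% of them were above the upper quartile of depth of their library, 7259 and 9773 UMIs. The gene made up a median of 0.0310% and 0.0236% of the UMIs of a carrier, the lowest shares of the 16 members in both libraries. Its level was 4.52 CPM (4.07 to 5.00) and 20.5 CPM (19.6 to 21.4), a ratio of 4.53 (4.05 to 5.08), and 38 (0.256%, 0.181 to 0.351) and 196 cells (1.57%, 1.35 to 1.80) carried it. At an equal depth of 1000 UMIs per cell, 0.189% of the naïve (0.120 to 0.284) and 0.934% of the challenged cells (0.766 to 1.13) held a UMI of it. Cecropin B was 1.71 and 1.42 times the level in other cells, and PPO1, SPARC and procathepsin H were at 178, 144 and 136 CPM in the naïve carriers.

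SPEXI_LOCUS11456 was also carried by RNA-rich cells, but mostly by others. Its 115 naïve and 207 challenged carriers had medians of 18797 and 22877 UMIs, and 89.6% and 90.3% were above that upper quartile. It shared 13 carriers with SPEXI_LOCUS12275, with an r of 0.03. The summed level was 29.0 CPM (27.8 to 30.2) and 29.9 CPM (28.8 to 31.1), a ratio of 1.03 (0.979 to 1.09). The carriers were 0.775% (0.640 to 0.929) of the naïve and 1.65% (1.44 to 1.89) of the challenged cells, while the mean per carrier was 18.5 and 12.005 UMIs. At 1000 UMIs per cell, 0.814% (0.662 to 0.990) and 1.11% (0.925 to 1.32) of the cells held a UMI of it. Of its 322 carriers, 310 held 3 or more UMIs of SPEXI_LOCUS11459 and 297 of SPEXI_LOCUS11457, with an r of 0.47 each.

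SPEXI_LOCUS1137 was carried by shallow cells in which it could be a large part of the RNA. The medians were 1242.5 naïve and 2566 challenged UMIs, and a challenged cell of 702 UMIs held 181 of this gene, 25.8% of its total. The level was 22.3 CPM (21.3 to 23.3) and 14.3 CPM (13.6 to 15.1), a ratio of 0.643 (0.599 to 0.691), with 116 and 78 carriers. Of the carriers, 15.5% of the naïve and 41.0% of the challenged ones were cathepsin-rich, against 19.5% and 25.8% of all cells. The r of SPEXI_LOCUS1137 was 0.01 with procathepsin H. Among the marker genes it was highest with calphotin-like, a top gene of another cluster of the paper, at 0.14. The closest locus was SPEXI_LOCUS11790 with an r of 0.51, carried by 97 of the 194 carriers, followed by SPEXI_LOCUS4418 (0.42), SPEXI_LOCUS4417 (0.39) and SPEXI_LOCUS4422 (0.36). The numbers of the last 3 lie next to that of the HP13 gene SPEXI_LOCUS4419, but the r of SPEXI_LOCUS1137 with SPEXI_LOCUS4419 was lower, at 0.09. SPEXI_LOCUS1137 and SPEXI_LOCUS4419 shared 9 carriers, more than the 0.872 cells given by the product of their shares of carriers.

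SPEXI_LOCUS1708, the member at the limit of 2000 UMIs, had no close partner, with an r of 0.22 to SPEXI_LOCUS3454 and at most 0.18 to any other locus. It was at 20.9 CPM (19.9 to 21.9) in naïve and 3.20 CPM (2.85 to 3.58) in challenged larvae, a ratio of 0.153 (0.135 to 0.173), with 108 and 27 carriers. Cecropin B was 3.22 times as high in its naïve carriers as in the other naïve cells, at 8639 CPM, and 0.827 times in the challenged ones, at 16149 CPM. SPARC was at 0.0775 and 0.312 times the level in the other cells.

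Of the 16 members, 7 were at least 2-fold higher in the naïve library and 3 in the challenged one, and 6 lay within 2-fold. The background over all 5079 loci with at least 2000 UMIs was 1.52% at least 2-fold higher in naïve cells and 1.97% in challenged cells. The 7 were SPEXI_LOCUS9291, SPEXI_LOCUS5703, SPEXI_LOCUS1708, SPEXI_LOCUS4719, SPEXI_LOCUS4130, SPEXI_LOCUS12129 and SPEXI_LOCUS7068, and the 3 were SPEXI_LOCUS8320, SPEXI_LOCUS12275 and SPEXI_LOCUS9231. The median log2 ratio was -0.94 over the members and 0.04 over those loci. The pooled limit of 3% itself favours genes low in 1 library. SPEXI_LOCUS8320, SPEXI_LOCUS12275 and SPEXI_LOCUS9231 had a UMI in 4.30%, 4.11% and 4.67% of the challenged cells. They met the limit through the naïve cells, with 0.687%, 0.775% and 1.15%. SPEXI_LOCUS9291 reached 2000 UMIs through 2125 naïve UMIs, against 88. The background is thus not like for like, and no excess of changed members is read from it. Each of these sums rests on few cells of 1 library per group, so the counts are descriptions of these libraries.

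**Figure D4:**
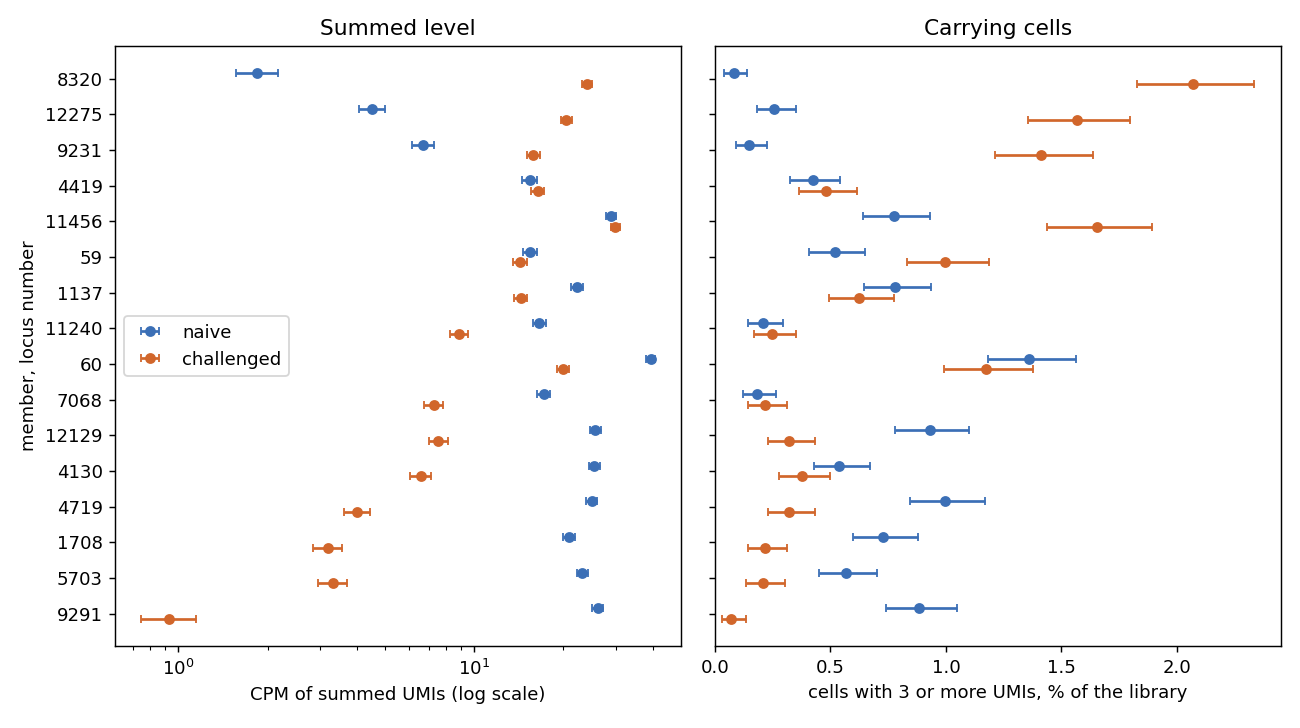
Level of each member as CPM of summed UMIs (left, log scale) and share of cells with 3 or more UMIs (right), in the naïve (blue) and the challenged library (orange), ordered by the ratio of CPM. Bars are exact 95% Poisson and Clopper-Pearson intervals for counting error, with 1 library per group, and SPEXI_LOCUS8320 at the top and SPEXI_LOCUS9291 at the bottom have ratios of 12.998 and 0.0356.

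The ratio of summed levels and that of the shares of carriers did not always go together. SPEXI_LOCUS11456 had 2.13 times the share of carriers and 0.649 times the UMIs per carrier in the challenged library, with a level ratio of 1.03. SPEXI_LOCUS59 had 1.92 and 0.679 times. For SPEXI_LOCUS4130 the share of carriers was 0.696 times and the mean per carrier 0.473 times, and for SPEXI_LOCUS7068 they were 1.19 and 0.479 times. SPEXI_LOCUS8320 had 25.6 times the share of carriers and 1.77 times the mean UMIs per carrier. At an equal depth of 1000 UMIs per cell, 0.263% of the naïve and 1.67% of the challenged cells held a UMI of SPEXI_LOCUS8320. The same shares were 0.321% and 1.07% for SPEXI_LOCUS9231 and 1.25% and 0.105% for SPEXI_LOCUS9291. These 3 kept at equal depth the order that they had in summed CPM. SPEXI_LOCUS59 did not, with 0.724% of the naïve and 0.890% of the challenged cells. SPEXI_LOCUS11240 was nearly level, with 0.559% and 0.550%.

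**Figure D5:**
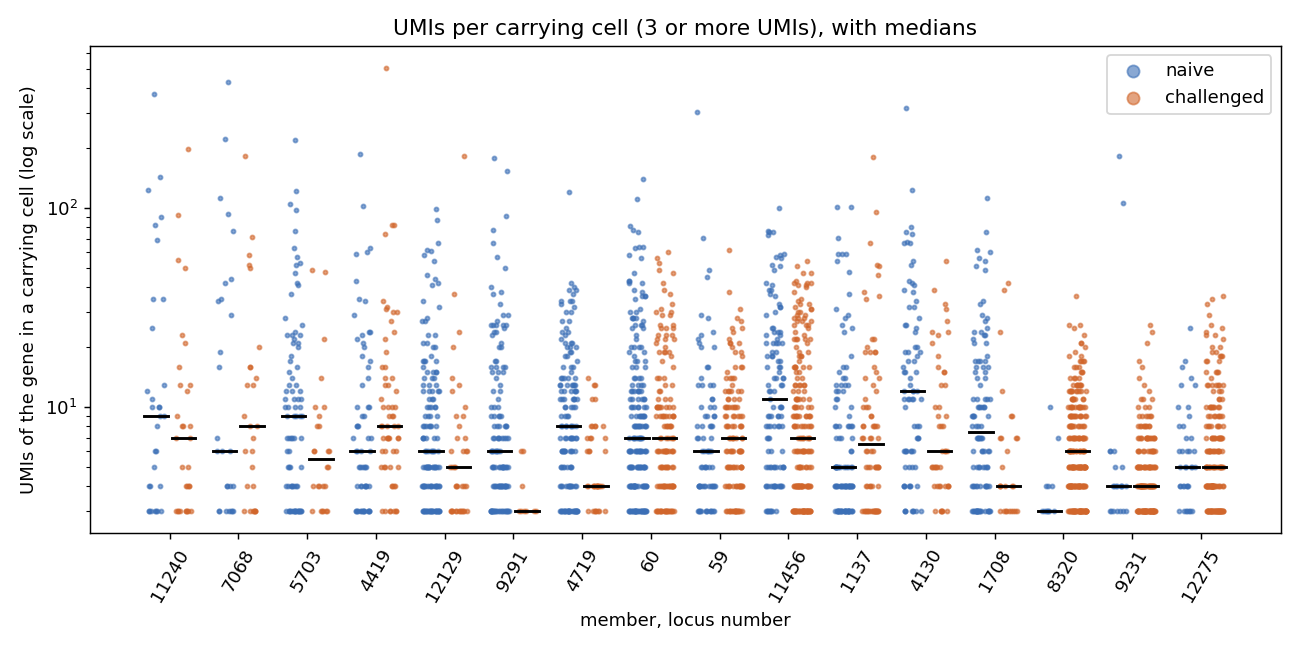
UMIs of each member in every cell that carried it (3 or more UMIs, log scale), in the naïve (blue) and the challenged library (orange), with the median as a bar. Single cells reach 506 UMIs for SPEXI_LOCUS4419 and 430 for SPEXI_LOCUS7068, while no cell exceeded 36 for SPEXI_LOCUS8320 or SPEXI_LOCUS12275.

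Counted over the 2 sets and the 12 single members, 871 naïve cells (5.87%) and 1223 challenged cells (9.77%) carried at least 1 set. The challenged cells were deeper, and the order turned at equal depth. After thinning every cell to 1000 UMIs, which left out 2683 naïve and 1066 challenged cells, the numbers were 267 of 12157 (2.20%) and 176 of 11458 (1.54%). No order of the libraries is read from these shares. Free RNA can give single UMIs in cells that do not make a transcript. Among the cathepsin-rich cells, 3 or more UMIs of a member other than SPEXI_LOCUS4419, SPEXI_LOCUS1137 and SPEXI_LOCUS1708 were found in at most 0.311% of the naïve and 0.217% of the challenged cells, both for SPEXI_LOCUS60. At 1 or more UMIs its shares were 1.38% and 0.743%. The members left out of that range were carried by 1.28%, 0.622% and 0.450% of the naïve cathepsin-rich cells, in the order given. Cathepsin-rich cells were shallow, with medians of 1718 and 2065 UMIs, so these shares set no limit on free RNA in deeper cells. For SPEXI_LOCUS4419 and SPEXI_LOCUS1708, 0 of the 481 PPO-rich naïve cells carried the gene, where the same limit of 3 counts is 0.624%, and for SPEXI_LOCUS1137 1 cell (0.208%) did.

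Several members shared cells with loci whose numbers follow or precede their own. Among the loci within 10 rows of a member in the files, 22 of 179 pairs (12.3%) had an r of at least 0.2, against 0.163% of the pairs of a member with any of the 7711 loci of at least 200 UMIs. These 22 belonged to 7 of the 16 members, with 7 from SPEXI_LOCUS60, 4 from SPEXI_LOCUS59 and 5 from SPEXI_LOCUS11456. The rows around SPEXI_LOCUS60 and SPEXI_LOCUS59 overlap, so the pairs are not separate, and the pair of these members was counted from both sides. SPEXI_LOCUS60 had an r of 0.66 with SPEXI_LOCUS61, 0.43 with SPEXI_LOCUS62 and 0.42 with SPEXI_LOCUS67. SPEXI_LOCUS11456 had 0.42 with SPEXI_LOCUS11454 and 0.38 with SPEXI_LOCUS11453 besides the 2 loci above. SPEXI_LOCUS9291 had 0.40 with SPEXI_LOCUS9289, 0.34 with SPEXI_LOCUS9292 and 0.29 with SPEXI_LOCUS9290. No genome was used here, so whether these numbers follow positions on a chromosome, and whether reads of near-identical copies were split among them, was not tested. Loci with consecutive numbers could also differ between the libraries, with ratios of 0.506 for SPEXI_LOCUS60 and 0.183 for SPEXI_LOCUS61.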

How the data were processed

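Hemocytes of naïve and of challenged larvae were measured in 1 single-cell library each. The authors deposited Cell Ranger output, in which each value is the count of UMIs of a gene in a cell, not normalized. The file headers name version 7.2.0, and the genome build is not given in the sources used here. Cells with at least 200 genes were kept, and no filter on mitochondrial counts was applied. The identifier and barcode columns deposited with the counts hold names only.

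The member genes, the lists and the limits were chosen with earlier results of these data known. Every member is named under the rule for named genes, since each fell under 1 of its parts (the largest members of a set, the 10 single members with the most UMIs, members named in the paper, extreme ratios, or neighbours of a limit). SPEXI_LOCUS9290, SPEXI_LOCUS9292 and the splits of the carriers of SPEXI_LOCUS5703 and SPEXI_LOCUS4419 were chosen after their values were seen, as was leaving out the 1 top cell of each split. Gene names come from the paper's supplementary tables and pathway diagrams. Likeness was computed against loci with at least 200 UMIs. Sets came from average-linkage clustering of r. A set was carried at 3 or more UMIs of at least 2 of its members, or of its 1 member. UMIs were summed per library and given as CPM, with exact Poisson intervals. Ratios have exact conditional intervals, and shares above 0 have exact Clopper-Pearson intervals, all at 95%. For a count of 0 the limit given is 3 counts of the total. With 1 library per group no p-value was computed. Intervals cover counting error only.

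Doublets were called with Scrublet in scanpy 1.11.5 per library, found 432 naïve and 194 challenged cells against 11.9% and 10.0% expected, and were kept. Alternatives covered the limits of the rule, the clustering, the limit for carrying, thinning, doublets, a minimum of 500 genes and the scaling (edgeR 4.0.16 TMM factors, in R 4.3.3, used for the factor alone). The ratio was tested on simulated data for the 5079 loci with 200 changed. Its intervals covered 95.2% of the true ratios, under the Poisson model they assume. The clustering recovered 3 of 3 sets planted in simulated data. All genes of a planted set lay in the same cells with little background. That is a cleaner case than members with partly shared carriers, so recovery there says little about the sets found here. Tables were made in Python 3.11.15 (pandas 2.3.3, numpy 2.4.6, scipy 1.17.1) and plots with matplotlib 3.10.9.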

Additional observations from a re-analysis of the deposited data

How the results depend on the processing

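The number of members depended on the limits. It was 9 with at least 500 genes per cell, 9 under 2% of the cells, 34 under 4%, 64 at 1000 UMIs and 2 at 4000 UMIs, against 16. Without called doublets it was 15, of which 14 were among the 16. Sets of 2 or more members numbered 0 at a mean r of 0.6 and 3 at 0.3. There were the same 2 sets by the Jaccard index and without doublets, and 2 with other members within either library. In the naïve library SPEXI_LOCUS4719 joined SPEXI_LOCUS12129 and SPEXI_LOCUS9291, and in the challenged one the sets were SPEXI_LOCUS60 with SPEXI_LOCUS59 and SPEXI_LOCUS5703 with SPEXI_LOCUS11240 and SPEXI_LOCUS7068. With troponin T and myosin regulatory light chain 2 added, an alternative chosen after the data were seen, both joined SPEXI_LOCUS11240 and SPEXI_LOCUS7068. Cells carrying a set numbered 2610 naïve and 2917 challenged at 1 or more UMIs, 364 and 360 at 10 or more, and 267 and 176 after thinning to 1000 UMIs. The members at least 2-fold higher in the naïve library numbered 6 to 8 and in the challenged library 2 or 3 over all scalings and left-out cells, including the removal of the 1 top cell, also chosen after the data were seen. None of these 10 members changed direction, while SPEXI_LOCUS60, SPEXI_LOCUS59 and SPEXI_LOCUS4419, all within 2-fold, did under at least 1 alternative. The median log2 ratio of the 5079 loci was 0.04, 0.14 with the TMM factor and -0.09 with equal weight per cell. No paired analysis was possible because each group has 1 library. Members at the limit of detection in shallow cells cannot be told from absent ones.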
